A study of Mus musculus with 12 samples.

Results

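The keratin genes measured here were the 47 mouse genes whose probe carried a single gene symbol made of Krt and a number, with Krt20 left out. Each had 1 probe, among 19938 genes with such a probe and 28853 probes in all. By the usual grouping of the family, 5 were keratins of simple epithelia, 18 of stratified squamous epithelia, 9 of the inner and companion layers of the hair root sheath and 11 of the hair itself, and 4 were given no class. The RNA came from the colon, and each mouse had 1 Affymetrix MoGene 1.0 ST array. The 4 groups of 3 male C57BL/6 mice were TSP-1-/- mice given AOM/DSS, WT mice given AOM/DSS, untreated TSP-1-/- mice that drank water and untreated WT mice that drank water. AOM/DSS stands for 1 injection of the carcinogen azoxymethane (10 mg/kg) and 4 cycles of 7 days of 1.5% dextran sodium sulfate, which injures the colonic epithelium. Treatment began at 7 weeks of age and the mice were killed 15 weeks after AOM. The AOM/DSS RNA came from diseased colon with tumors and the water RNA from untreated colon. The TSP-1-/- mice carry a mutated Thbs1 gene that still gives a transcript but no protein, in every cell of the body. The probe of Thbs1 therefore does not check the genotype. It read 0.81, 0.85 and 0.93 in AOM/DSS TSP-1-/- mice, against 0.27, -0.16 and -0.07 in AOM/DSS WT mice (log2 difference 0.85, adjusted p = 0.073).

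Keratins are the intermediate filament proteins of epithelial cells. A type I and a type II keratin pair to form a filament, and each epithelium uses its own pairs. The columnar epithelium of the colon is built on Krt8 with Krt18, Krt19 and Krt20. Basal cells of squamous epithelia use Krt5 with Krt14, cells above them use Krt1 with Krt10 in the epidermis and Krt4 with Krt13 in the mouth and esophagus, and hair and nail use a separate set of hard keratins. In the mouse the anal canal, next to the rectum, is lined by squamous epithelium. The type I genes lie in a cluster on chromosome 11 and the type II genes in a cluster on chromosome 15, with Krt18 as the type I gene beside Krt8. Of the genes described here 25 were type I and 22 type II, 24 lay on chromosome 11 and 23 on chromosome 15.

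All values below are log2 values relative to a baseline set for each probe. They hold no absolute level, so whether a keratin was expressed at all in the colon, or more than another, could not be read from them. The AOM/DSS arrays and the water arrays were not on the same baseline and were not compared with each other. Genotypes were compared within each set with limma across all probes, with Benjamini-Hochberg adjustment. A probe was called when its adjusted p was below 0.05 and its difference at least 2-fold. The array of TSP-1-/- AOM/DSS mouse 3 stood apart from the others, with an SD over all probes of 0.753, against 0.293 to 0.453 on the other 11 arrays. Over 8 genes of pancreatic acinar cells its median was 6.44, against 0.0085 and 0.021 on the other TSP-1-/- AOM/DSS arrays and -0.16, -0.21 and -0.20 on the WT AOM/DSS arrays. Over all probes 500 were called higher and 302 lower in AOM/DSS TSP-1-/- mice. With each array centred on its median these were 396 and 414, and with the 12 arrays quantile normalized a further time 78 and 105.

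Within the AOM/DSS arrays 4 of the 47 keratins were called, all of them higher in TSP-1-/- mice: the hair keratin Krt36, the squamous keratins Krt14 and Krt4, and Krt23 of the simple class. This is 8.51% of the keratins, beside 2.78% of all probes called either way and 1.73% called higher. No keratin was called lower, beside 1.05% of all probes. By adjusted p alone 8 keratins passed, all higher, beside 5.38% of all probes that passed higher and 8.3% that passed either way, and 18 had an unadjusted p under 0.05, beside 32.3% of all probes. The 8 became 2 without WT AOM/DSS mouse 3, 3 without TSP-1-/- AOM/DSS mouse 3 and 5 without WT AOM/DSS mouse 2, 2 when all 12 arrays were quantile normalized a further time and 1 with only the 6 AOM/DSS arrays. Of the 47, 36 had a positive difference, with a median of 0.22, beside 0.13 over all probes, of which 62.8% were positive. In 16 keratins (34% of them) all 3 TSP-1-/- mice lay above all 3 WT mice, beside 20.2% of all probes. In none of these 47 did all 3 lie below, beside 10.7% of all probes, but they did in Krt20 and Krt33a, which the selection left out. The median of all probes moved to 0.052 when arrays were centred on their medians, to 0.018 when all 12 were quantile normalized a further time and to 0.021 when this was done per array set, and that of the keratins to 0.15, 0.080 and 0.096. Under these 3 scalings the medians stayed above 0 for the squamous (0.18 to 0.24) and hair classes (0.17 to 0.20) and below 0 for the simple class (-0.20 to -0.24).

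For 3 of the 4 called genes, the 150 bases before a transcription start in the RefSeq table (assembly GRCm38.p6) are given, so that the called genes of the 3 classes can be set beside each other. In the order shown they lie at chr11:100105627-100105776, chr11:100206031-100206180 and chr11:99493121-99493270, all on the minus strand, written 5′ to 3′ with the start just after the last base. Krt4 had no entry. For Krt23 this start is the edge of the gene's RefSeq span. For Krt36 and Krt14 it lies 3861 and 1480 bases inside that span, so these windows precede one start of the gene and not its outermost, and which start the colon uses was not tested. Capitals mark TATANAA, a form of the TATA box, on either strand; in Krt36 a match on each strand overlap.
Krt36: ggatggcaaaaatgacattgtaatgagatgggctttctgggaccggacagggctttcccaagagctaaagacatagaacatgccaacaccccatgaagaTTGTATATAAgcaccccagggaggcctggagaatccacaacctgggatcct
Krt14: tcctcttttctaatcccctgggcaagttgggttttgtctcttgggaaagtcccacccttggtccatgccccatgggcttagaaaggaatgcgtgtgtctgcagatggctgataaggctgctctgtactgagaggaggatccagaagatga
Krt23: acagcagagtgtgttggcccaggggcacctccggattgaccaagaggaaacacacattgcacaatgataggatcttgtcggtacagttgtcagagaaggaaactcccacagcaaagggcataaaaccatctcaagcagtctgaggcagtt
In the 250 bases before the start, 35 windows of 34 keratin genes were found, and in 8 of them the start lay inside the gene's span. TATANAA occurred in 14 of them (40%), against 10.4% of all 32851 windows, and among the 3 genes shown only in Krt36. GGGCGG, the core of the GC box of many housekeeping promoters, occurred in 2 (5.71%), against 32.7% of all windows. CCAAT occurred in 14 (40%), against 33.8%, and CTTTGA, a form of the TCF/LEF site, in 8 (22.9%), against 13.8%. TGANTCA, the AP-1 site, occurred in 2 (5.71%), against 6.75%. All were searched on both strands. These counts describe the letters in the windows and say nothing of a factor at them.

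Krt36, a hard keratin known from the nail and the papillae of the tongue, had the largest difference of the family. Its values were 1.70, 2.03 and 2.16 in AOM/DSS TSP-1-/- mice, against 0.07, -0.19 and 0.09 in AOM/DSS WT mice. The 2 groups were far apart, and within each the mice were close together. The log2 difference was 1.97 ± 0.17 (SE), or 3.92-fold, with an adjusted p of 5.84e-04. In water mice it read 0.23, 0.27 and -0.21 in TSP-1-/- mice, against -0.21, -0.12 and -0.06 in WT mice, and these groups overlapped. Without TSP-1-/- AOM/DSS mouse 3 the difference in the AOM/DSS pair was 1.87 (adjusted p = 5.52e-04).

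**Figure D1:**
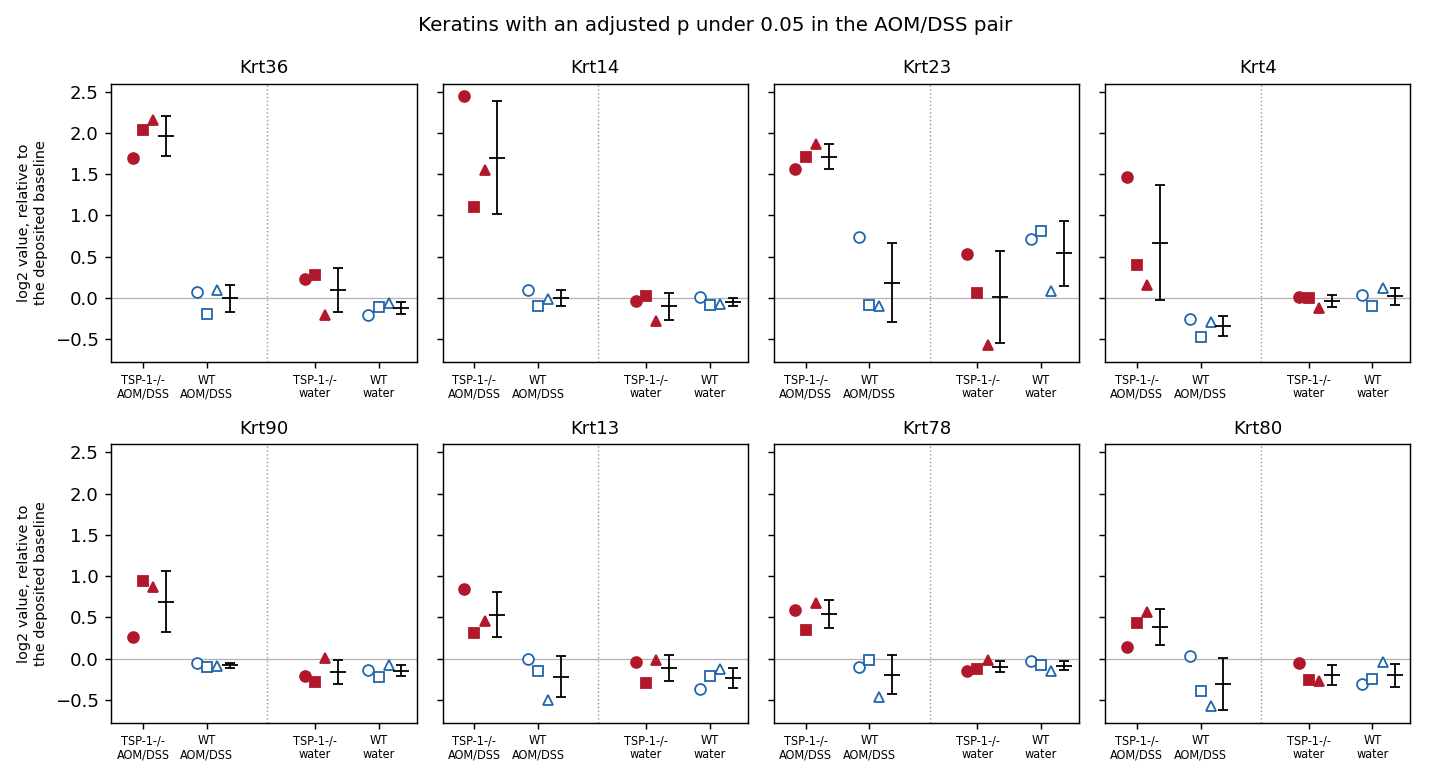
Log2 value relative to the deposited baseline (vertical axis) of the 8 keratins with an adjusted p under 0.05 in the AOM/DSS pair, for each mouse (circle, square and triangle are mice 1, 2 and 3; filled red TSP-1-/-, open blue WT), with the group mean and SD (n = 3) beside the points. The 2 array sets, split by the dotted line, have different baselines. In all 8 genes the 3 TSP-1-/- AOM/DSS mice lie above the 3 WT AOM/DSS mice, and in water mice the genotypes overlap.

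No other hair keratin was called. Of the 11, 10 had a positive difference, beside 62.8% of all probes, and the median was 0.27, beside 0.13. Those other than Krt36 ranged between -0.01 for Krt86 and 0.54 for Krt35. The selection left out the hair keratins Krt33a and Krt33b, and both were negative on the AOM/DSS arrays. Krt33a differed by -0.37 without overlap, and Krt33b by -0.035 with overlap. Krt35, a keratin of the hair matrix and cuticle and the gene next to Krt36 among these members, read 0.15, -0.03 and 0.03 in AOM/DSS TSP-1-/- mice, against -0.45, -0.44 and -0.57 in AOM/DSS WT mice. The groups did not overlap, and the difference of 0.54 had an adjusted p of 0.0583. Krt84, a type II hair keratin, differed by 0.48 (adjusted p = 0.129), and its groups overlapped.

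Among the 18 squamous keratins 16 had a positive difference in the AOM/DSS pair, beside 62.8% of all probes. The median was 0.31, beside 0.13 over all probes. A similar shift was seen in the 44 keratin-associated proteins of the hair shaft, where 40 were positive and the median was 0.27. Whether the shift was particular to squamous keratins was not tested. In 8 of the 18 (44.4%) the genotypes did not overlap, all with TSP-1-/- above WT, beside 20.2% of all probes. Krt14, the type I keratin of basal cells, read 2.44, 1.10 and 1.55 in AOM/DSS TSP-1-/- mice, against 0.10, -0.09 and -0.02 in AOM/DSS WT mice. Mouse 1 was the highest, and the lowest TSP-1-/- mouse was still well above every WT mouse. The log2 difference was 1.70 ± 0.26 (SE), or 3.26-fold (adjusted p = 0.00987). Its type II partner Krt5 read -0.02, 0.08 and 0.03 in AOM/DSS TSP-1-/- mice, against -0.15, 0.21 and -0.24 in AOM/DSS WT mice. The genotypes overlapped for Krt5. Its difference was 0.09 (95% interval -0.23 to 0.42, adjusted p = 0.683), beside an interval of 1.14 to 2.27 for Krt14. These intervals use a variance pooled over both array sets. For Krt14 the SDs were 0.68 and 0.10 in AOM/DSS TSP-1-/- and WT mice, against 0.16 and 0.05 in water mice. The SE and interval given for Krt14 are thus likely too narrow. In the limma fit of only the 6 AOM/DSS arrays the adjusted p of Krt14 was 0.111.

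Both genes of the mouth and esophagus pair passed the adjusted p. Krt4, its type II member, read 1.46, 0.39 and 0.16 in AOM/DSS TSP-1-/- mice, against -0.26, -0.47 and -0.29 in AOM/DSS WT mice, a difference of 1.01 ± 0.26 (SE, 2.02-fold, adjusted p = 0.0390). The SDs of Krt4 were 0.69 and 0.12 in AOM/DSS TSP-1-/- and WT mice, against 0.08 and 0.11 in TSP-1-/- and WT water mice. The SE given for Krt4 is thus likely too narrow as well. The groups did not overlap, but TSP-1-/- mouse 1 carried much of the difference. Without that mouse it was 0.62 (adjusted p = 0.0403) and below 2-fold. The call was also lost without WT AOM/DSS mouse 2 or 3, without any 1 of the 3 WT water mice or without TSP-1-/- water mouse 1 or 2 (adjusted p 0.0535 to 0.117). Krt13, its type I partner, read 0.84, 0.31 and 0.45 in AOM/DSS TSP-1-/- mice, against -0.01, -0.16 and -0.50 in AOM/DSS WT mice. It passed by adjusted p alone (difference 0.75, adjusted p = 0.0299), and in 14 of 20 alternatives. It did not pass without WT AOM/DSS mouse 2 or 3 or TSP-1-/- AOM/DSS mouse 1 or 3 (adjusted p 0.052 to 0.11). Krt4, Krt13, Krt14 and Krt15, a further basal keratin, were each highest in TSP-1-/- AOM/DSS mouse 1, whereas Krt36 and Krt23 were highest in mouse 3.

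Krt15 read 1.56, 0.48 and 0.47 in AOM/DSS TSP-1-/- mice, against -0.13, 0.03 and 0.09 in AOM/DSS WT mice, and its difference of 0.84 had an adjusted p of 0.0560 although the groups did not overlap. Krt17, a keratin that injured and proliferating epidermis induces, overlapped between the genotypes. Its values were -0.07, 1.68 and 0.83 in AOM/DSS TSP-1-/- mice, against 1.05, -0.93 and -1.15 in AOM/DSS WT mice. WT mouse 1 was above 2 of the TSP-1-/- mice, and the difference of 1.16 had an adjusted p of 0.145. Without WT AOM/DSS mouse 1 it was 1.85 (adjusted p = 0.0146) and would have been called. The genes of Krt14, Krt16 and Krt17 are close in sequence, and whether their probes share signal was not tested; Krt16 differed by 0.28 (adjusted p = 0.225).

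Krt78 and Krt80, type II keratins, passed by adjusted p alone. Krt78 read 0.59, 0.34 and 0.68 in AOM/DSS TSP-1-/- mice, against -0.11, -0.02 and -0.46 in AOM/DSS WT mice (difference 0.73, adjusted p = 0.0199). Krt80 read 0.14, 0.43 and 0.56 in AOM/DSS TSP-1-/- mice, against 0.03, -0.39 and -0.57 in AOM/DSS WT mice (difference 0.69, adjusted p = 0.0372). Neither gene overlapped between the genotypes. Krt78 passed in 16 of 20 alternatives, but not without WT AOM/DSS mouse 3 (adjusted p = 0.0709) or TSP-1-/- AOM/DSS mouse 3 (adjusted p = 0.0625). Krt80 passed in 8 of 20 (adjusted p up to 0.153) and was lost without any 1 of WT AOM/DSS mice 2 and 3, TSP-1-/- AOM/DSS mice 2 and 3, the 3 WT water mice or TSP-1-/- water mouse 2, and with the replicate block (0.054). Neither gene of the epidermal pair passed the test. Krt1 differed by 0.17 (adjusted p = 0.444) and Krt10 by -0.22 (adjusted p = 0.433), with overlap in both.

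The 5 simple keratins, among them Krt8, Krt18 and Krt19 of the colonic epithelium, had a median difference of -0.14, beside 0.13 over all probes. Krt20, also of the colonic epithelium, was left out of the selection. Of the 5, 2 were positive, beside 62.8% of all probes. Krt8, the type II keratin of the colonocyte, read 0.00, -0.00 and -0.42 in AOM/DSS TSP-1-/- mice, against 0.07, 0.00 and 0.13 in AOM/DSS WT mice (difference -0.21, 95% interval -0.52 to 0.11, adjusted p = 0.326). Its partner Krt18 read 0.29, 0.60 and -0.10 in AOM/DSS TSP-1-/- mice, against 0.44, -0.18 and 0.24 in AOM/DSS WT mice (difference 0.10, 95% interval -0.36 to 0.55, adjusted p = 0.761). Krt19 read 0.12, 0.10 and -0.50 in AOM/DSS TSP-1-/- mice, against 0.23, -0.03 and 0.41 in AOM/DSS WT mice (difference -0.30, 95% interval -0.72 to 0.12, adjusted p = 0.294). For each of the 3 the genotypes overlapped, and the lowest TSP-1-/- value was that of mouse 3. Krt7, a keratin of ductal epithelia, differed by -0.14 (95% interval -0.58 to 0.31, adjusted p = 0.663). These intervals do not show that the genotypes were alike, and without WT AOM/DSS mouse 3 the class median was 0.019. Leaving out TSP-1-/- AOM/DSS mouse 3 brought Krt8 to -0.07 and Krt19 to -0.10.

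**Figure D2:**
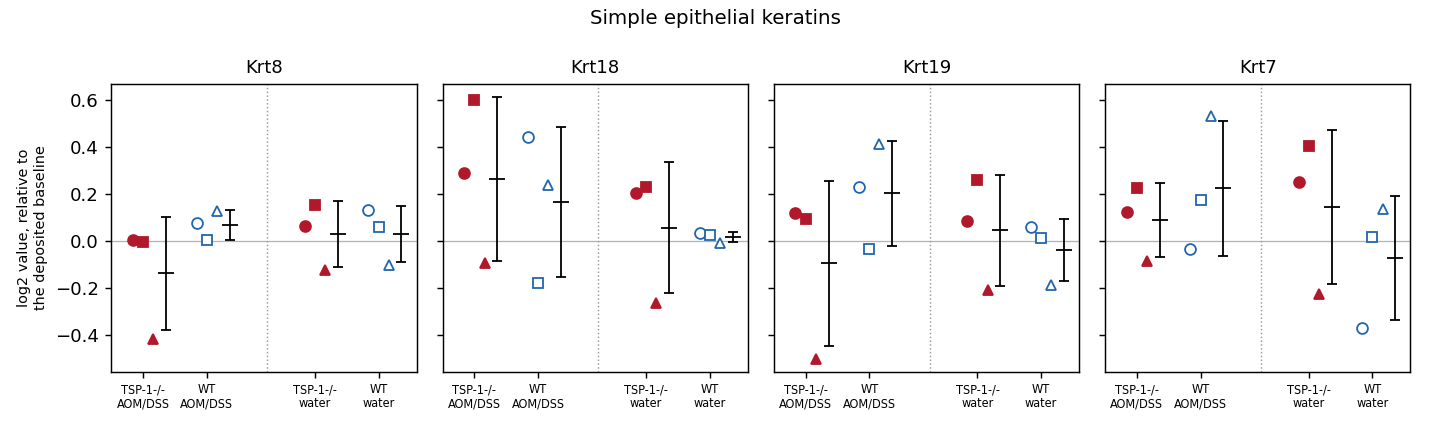
Log2 value relative to the deposited baseline (vertical axis) of Krt8, Krt18, Krt19 and Krt7 for each mouse (circle, square and triangle are mice 1, 2 and 3; filled red TSP-1-/-, open blue WT), with the group mean and SD (n = 3) beside the points and the array sets split by the dotted line. The genotypes overlap in all 4 genes on both array sets, and the TSP-1-/- AOM/DSS value of mouse 3 is the lowest of its group in each.

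Krt23, a type I gene, was the called keratin of this class. It read 1.56, 1.71 and 1.86 in AOM/DSS TSP-1-/- mice, against 0.73, -0.09 and -0.10 in AOM/DSS WT mice. The TSP-1-/- mice were close together, and WT mouse 1 lay between them and the other WT mice. The log2 difference was 1.53 ± 0.30 (SE), or 2.88-fold (adjusted p = 0.0206). The call was lost without WT AOM/DSS mouse 3 (1.39, adjusted p = 0.0864), without TSP-1-/- AOM/DSS mouse 3 (1.45, adjusted p = 0.0628) and under both forms of quantile normalization (0.84 and 1.08, adjusted p = 0.232 and 0.0762). In water mice the sign was the opposite, with 0.54, 0.06 and -0.57 in TSP-1-/- mice, against 0.71, 0.81 and 0.08 in WT mice. These groups overlapped, and the difference of -0.53 (95% interval -1.18 to 0.13) had an unadjusted p of 0.104.

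The root sheath keratins had a median difference of 0.06, with 5 of 9 positive, beside 0.13 and 62.8% over all probes. Under each of the 3 other scalings the median was below 0 (-0.018, -0.011 and -0.013). Krt73 had the largest difference of the class, with 0.30, 0.43 and 0.14 in AOM/DSS TSP-1-/- mice, against -0.57, 0.06 and -0.69 in AOM/DSS WT mice (0.69, adjusted p = 0.0544). Krt26 differed by 0.60 (adjusted p = 0.0661) and Krt27 by -0.39 (adjusted p = 0.366). Of the 4 genes with no class, the type II gene Krt90 passed by adjusted p alone. It read 0.26, 0.94 and 0.87 in AOM/DSS TSP-1-/- mice, against -0.05, -0.10 and -0.10 in AOM/DSS WT mice (difference 0.77, adjusted p = 0.0272), without overlap. It passed in 14 of 20 alternatives, but not without WT AOM/DSS mouse 2 or 3 or TSP-1-/- AOM/DSS mouse 3 (adjusted p 0.0526 to 0.0923). Krt42 differed by -0.28 and Krt88 by 0.28.

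**Figure D3:**
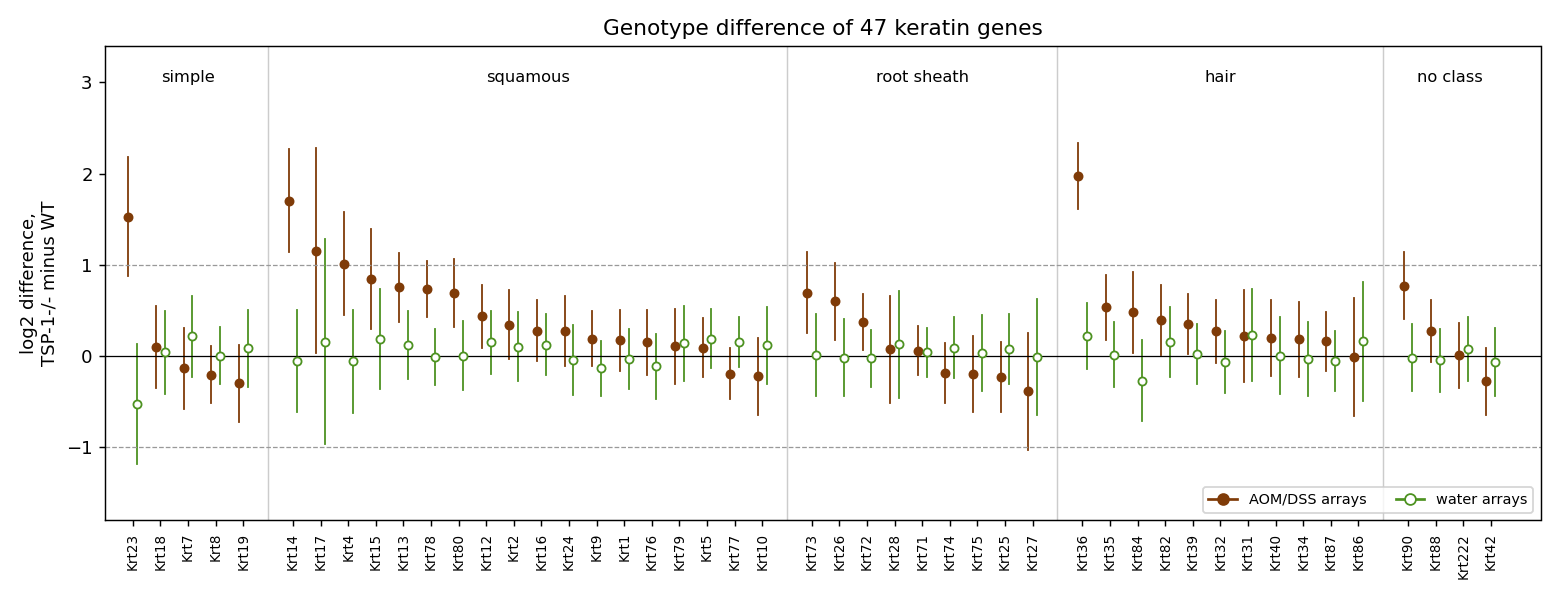
Log2 difference, TSP-1-/- minus WT (vertical axis), with its 95% interval from the limma fit for each of the 47 keratins, grouped by class and ordered within the class; filled brown points are the AOM/DSS arrays and open green points the water arrays (n = 3 mice per group). Dashed lines mark 2-fold either way. Krt36, Krt14, Krt23, Krt17 and Krt4 pass the upper line on the AOM/DSS arrays, Krt17 with the widest interval, and no keratin passes either line on the water arrays.

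Along the chromosomes, no called gene lay next to another among these members. On chromosome 11 Krt36 was followed, among these members, by Krt13 (0.75), Krt15 (0.84), Krt19 (-0.30) and Krt9 (0.19) before Krt14. Krt23 lay between Krt12 (0.44) and Krt39 (0.35). On chromosome 15 Krt4 lay between Krt76 (0.15) and Krt79 (0.10). Of the 25 type I genes 3 were called (12%) and the median difference was 0.27, and of the 22 type II genes 1 was called (4.55%) and the median was 0.17, beside 2.78% called and a median of 0.13 over all probes. Whether the types differed was not tested.

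**Figure D4:**
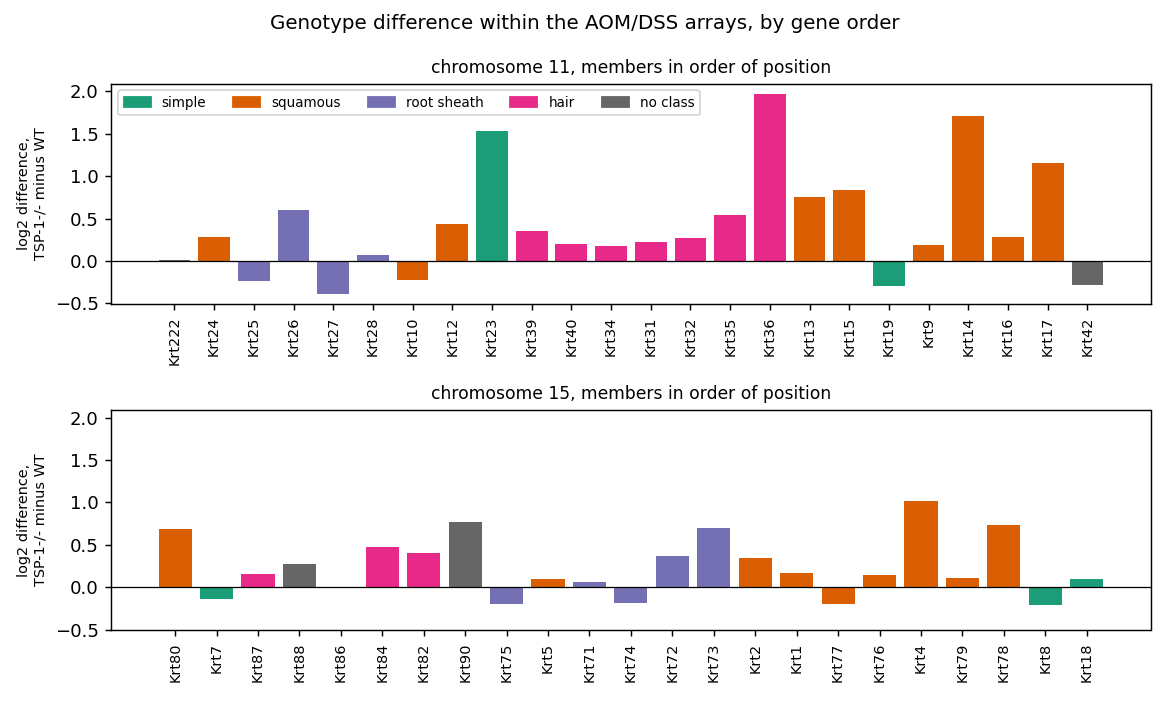
Log2 difference, TSP-1-/- minus WT, within the AOM/DSS arrays (vertical axis, bars from 0) for the keratins in order along chromosome 11 (top) and chromosome 15 (bottom), coloured by class; the spacing between bars is not to scale. The tallest bars on chromosome 11, Krt36, Krt14 and Krt23, stand beside members with differences below 1.

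In water mice no keratin was called (0 of 47), beside 0 of 28815 probes. None had an unadjusted p under 0.05, beside 0.999% of all probes. The differences ranged between -0.53 (Krt23) and 0.23 (Krt31), with a median of 0.02. In no keratin did all 3 TSP-1-/- water mice lie above all 3 WT water mice, beside 2.29% of all probes. In 2, Krt9 (-0.13) and Krt32 (-0.07), named here after their values were seen, all 3 lay below, beside 2.88% of all probes. The largest water difference by size was -0.27 among the hair keratins (Krt84), 0.19 among the squamous (Krt5), 0.13 in the root sheath class (Krt28) and 0.08 among those with no class (Krt222). The spread between mice was larger on the AOM/DSS arrays, where the median pooled SD was 0.25 for the keratins and 0.24 for all probes, than on the water arrays, where it was 0.16 for the keratins and 0.17 for all probes.

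The genotype difference was also compared between the array sets, as the AOM/DSS difference minus the water difference, in which the baseline of each set cancels. Treatment and array set go together here. A dependence on AOM/DSS therefore cannot be told apart from a dependence on the array set. No keratin was called, beside 2 of all probes (0.00694%), and 12 of 47 had an unadjusted p under 0.05, beside 15.4% of all probes. Krt23 had the largest value, 2.05 (adjusted p = 0.159), followed by Krt14 with 1.76 (adjusted p = 0.159) and Krt36 with 1.75 (adjusted p = 0.0537). Krt4 had 1.07 (adjusted p = 0.253). Krt36 lay near the threshold and was called under 7 of 19 alternatives, Krt14 under 2 and Krt23 under 1.

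The genes that work with keratins were read from the same fit, where 2.78% of all probes were called either way, 62.8% were positive and the median was 0.13. The cornified envelope is the protein shell of the outermost squamous cells. Of its 16 genes measured 2 were called (12.5%), both higher in AOM/DSS TSP-1-/- mice, and 14 were positive, with a median of 0.43. Asprv1, a protease of the upper epidermis, read 1.35, 2.73 and 1.84 in AOM/DSS TSP-1-/- mice, against 0.82, 0.08 and -0.74 in AOM/DSS WT mice (1.92, adjusted p = 0.0250). Tgm1, the transglutaminase that crosslinks the envelope, read 0.56, 1.42 and 1.47 in AOM/DSS TSP-1-/- mice, against 0.07, -0.44 and 0.29 in AOM/DSS WT mice (1.18, adjusted p = 0.0274). Neither overlapped between genotypes. Tgm3 had a difference of 1.83 with wide spread (adjusted p = 0.436). In the other direction Sprr1a, a precursor of the envelope, read -1.64, -0.01 and -0.95 in AOM/DSS TSP-1-/- mice, against -0.10, 0.46 and 1.26 in AOM/DSS WT mice (-1.40, adjusted p = 0.0533), with overlap.

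The keratin-associated proteins, which bind hair keratins in the hair shaft, gave 0 calls among 44 genes, beside 2.78% of all probes. Of these 40 were positive, beside 62.8% of all probes, with a median of 0.27. Krtap12-1 differed by 0.65 (adjusted p = 0.0279) and Krtap19-9b by 0.65 (adjusted p = 0.0787). In AOM/DSS WT mice their median level was -0.23, 0.0029 and -0.30, and that of the hair keratins -0.24, -0.011 and -0.31. In AOM/DSS TSP-1-/- mice these were 0.046, 0.055 and 0.16, and 0.011, -0.0079 and 0.13. In both lists WT mouse 2 lay near the TSP-1-/- mice, and WT mice 1 and 3 lay lower. The 13 desmosome and keratin linker genes, which tie keratins to cell junctions, gave 0 calls. Of these 11 were negative and 2 positive, beside 62.8% of all probes positive, with a median of -0.26. Their median level was -0.0050, 0.088 and -0.42 in AOM/DSS TSP-1-/- mice, against 0.24, 0.15 and 0.30 in AOM/DSS WT mice, and TSP-1-/- mouse 3 was by far the lowest. The linkers Dst (-0.70, adjusted p = 0.0459) and Plec (-0.61, adjusted p = 0.0352) passed by adjusted p alone. Without TSP-1-/- AOM/DSS mouse 3 neither passed (Dst -0.44, adjusted p = 0.102; Plec -0.49, adjusted p = 0.107), and over 20 alternatives Dst passed in 5 and Plec in 9. Among 13 other intermediate filament genes none was called; Vim, the filament of mesenchymal cells, differed by 0.90 (adjusted p = 0.0200) and Prph by -0.70 (adjusted p = 0.212). Of the keratins left out of the selection, Krt20 is the keratin of mature colonocytes. It read -0.07, -0.01 and -0.57 in AOM/DSS TSP-1-/- mice, against 0.35, 0.23 and 0.53 in AOM/DSS WT mice. It did not overlap, and its difference of -0.59 had an adjusted p of 0.0543. Krt33a read -0.37, -0.55 and -0.46 in AOM/DSS TSP-1-/- mice, against 0.01, 0.03 and -0.32 in AOM/DSS WT mice. Its difference was -0.37 (adjusted p = 0.086), also without overlap. Krt6b differed by 0.43 (adjusted p = 0.150), with TSP-1-/- above WT and no overlap.

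Marker genes of cells that could carry these keratins were read in the same way; in whole tissue, fewer cells of a type and less RNA per cell cannot be told apart. Among 13 probes of 12 squamous epithelium markers 8 were positive and 5 negative, with a median difference of 0.17, beside 0.13 over all probes. Of them 1 was called (7.69%, beside 2.78% of all probes), Ly6d, with 0.96, 1.11 and 3.13 in AOM/DSS TSP-1-/- mice, against 0.12, 0.02 and 0.09 in AOM/DSS WT mice (1.66, adjusted p = 0.0435). Mouse 3 was the highest, and without it the difference was 0.96 (adjusted p = 0.0553), below 2-fold. The lowest difference was that of a probe of Sfn, a 14-3-3 protein of epithelia (-0.32, adjusted p = 0.467). The median level over these probes was -0.047, 0.16 and -0.13 in AOM/DSS TSP-1-/- mice, against -0.069, -0.039 and -0.095 in AOM/DSS WT mice. Trp63, the factor that defines squamous basal cells, read 0.39, 0.38 and 0.36 in AOM/DSS TSP-1-/- mice, against 0.05, -0.05 and -0.47 in AOM/DSS WT mice (0.53, adjusted p = 0.0519). Dsc3, a squamous desmosomal cadherin, differed by 2.02 (adjusted p = 0.0878), with its highest value, 4.32, in TSP-1-/- AOM/DSS mouse 3. Among 9 hair follicle markers 1 was called (11.1%) and 8 were positive. The called gene was the cadherin Dsg4 (1.21, adjusted p = 0.0402), highest in TSP-1-/- AOM/DSS mouse 1, without which it was 0.72 and below 2-fold, and Hoxc13, a regulator of hair keratins, differed by 0.28 (adjusted p = 0.239).

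The 13 colon epithelium markers were all lower in AOM/DSS TSP-1-/- mice by sign, with a median of -0.48, beside 62.8% of all probes positive. Of them 1 was called (7.69%, beside 1.05% of all probes called lower), Car1 (-1.09, adjusted p = 0.0445; -0.70 and 0.107 without TSP-1-/- AOM/DSS mouse 3); Cdx2 differed by -1.10 (adjusted p = 0.0662). Their median was -0.017, -0.061 and -0.76 in AOM/DSS TSP-1-/- mice, against 0.14, 0.0094 and 0.18 in AOM/DSS WT mice. Mouse 3, the lowest for Krt8, Krt18 and Krt19, was thus also the lowest here. In 7 of the 13 markers all 3 TSP-1-/- mice lay below all 3 WT mice, beside 10.7% of all probes. For Cdh1, Car4, Slc26a3 and Aqp8 the negative sign rested on TSP-1-/- mouse 3. Slc26a3 read 0.04, -0.06 and -2.14 in AOM/DSS TSP-1-/- mice, against 0.35, -0.56 and 0.09 in AOM/DSS WT mice. Of 8 acinar genes all were positive, beside 62.8% of all probes. Of these 1 was called (12.5%, beside 1.73% of all probes called higher), Pnliprp1 (4.45, adjusted p = 0.0363). Pnliprp1 read 5.37, 3.47 and 7.23 in AOM/DSS TSP-1-/- mice, against 3.26, -0.29 and -0.25 in AOM/DSS WT mice. Cel differed by 3.24 (adjusted p = 0.159) and was high in TSP-1-/- AOM/DSS mouse 3 alone, at 7.83, against 0.07 and 0.27 in mice 1 and 2. No gene of 7 for mesothelium or of 6 for smooth muscle was called; Muc16 differed by -1.46 (adjusted p = 0.137), Wt1 by 0.44 (adjusted p = 0.0806), Myh11 by -0.55 (adjusted p = 0.202) and Actg2 by -0.49 (adjusted p = 0.188). The part of these cell types in the keratin differences was not tested. Without TSP-1-/- AOM/DSS mouse 3, Krt36 (1.87), Krt14 (1.78) and Krt4 (1.27) were still called and Krt23 was not.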

How the data were processed

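RNA of 12 mouse colons, 3 in each of 4 groups taken from the labels, was measured on Affymetrix MoGene 1.0 ST arrays. The deposited log2 values were made by the authors with PLIER16 and quantile normalization, and were set relative to a baseline that the methods give as the median of all 12 samples. That median was within 1e-04 of 0 for only 964 of 28815 probes with values on all 12 arrays, so the 2 array sets are on different baselines. Array files with absolute signal were not used here, so dim probes could not be filtered, and the number of arrays limits the precision. The labels of the water mice carry the protocol of another experiment, and their age and sex come from the methods alone.

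Group means were fitted with limma 3.58.1 (R 4.3.3) on all 12 arrays without a block, with TSP-1-/- minus WT within each set and the difference of these differences as contrasts, and p adjusted over all probes. The methods' test was an analysis of variance with the same adjusted p and fold minimum. The method was tested on simulated data. Of the probes 21789 had 1 symbol, 1621 several and 5443 none, and all 47 keratins had values on all arrays and matched RefSeq (GRCm38.p6). Tables were made with Python 3.11.15, pandas 2.3.3 and matplotlib 3.10.9. The members, classes and marker lists were chosen with earlier results of these data known. Named in the text were all simple keratins, all called members, the 3 largest AOM/DSS and the 1 largest water difference in each other class, partners of known pairs, Thbs1, and the 2 largest in each related list. Krt78 and Krt80, which passed by adjusted p alone, and Krt9, Krt15, Krt16, Krt31, Krt32, Krt86 and the neighbours of called genes were added after their values were seen. So were Krt33a, Krt33b, Tgm1, Sprr1a, Sfn, Trp63, Cdh1, Car4, Slc26a3 and Aqp8. The alternatives were other scalings, only the 6 arrays of a pair, robust variances, array weights, the methods' filter on variation within groups (CV under 25%), the replicate number as a block, each array left out, and no fold minimum.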

Additional observations from a re-analysis of the deposited data

How the results depend on the processing

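The 4 keratin calls in the AOM/DSS pair became 8 with no fold minimum, 2 under either quantile normalization (Krt14 and Krt36), 1 with only the 6 arrays of the pair (Krt36, where all probes gave 6 calls in place of 802), and 2 to 5 with 1 array left out (2 without WT AOM/DSS mouse 3, when 104 probes were called in all). Krt36 was called in all 20 alternatives (log2 difference 1.17 to 2.10, adjusted p 2.72e-04 to 0.0302) and Krt14 in 19, the exception being the 6 arrays of the pair (adjusted p = 0.111). Krt23 was called in 15 (adjusted p 0.00585 to 0.232) and Krt4 in 8 (adjusted p 0.0312 to 0.157; 0.94 with centred arrays, below 2-fold). The water pair gave 0 keratin calls in every alternative. The difference of differences, with 0 calls, gave 1 with robust variances, 2 with array weights, 1 with the filter on variation and 0 to 2 with 1 array left out (2 without WT AOM/DSS mouse 1, Krt23 and Krt36, or TSP-1-/- AOM/DSS mouse 2, Krt14 and Krt36). After group means were removed, same-numbered arrays correlated at 0.026, -0.043 and -0.025 in the AOM/DSS set and at 0.093, 0.28 and 0.40 in the water set, and 2 of 6 AOM/DSS arrays and 5 of 6 water arrays correlated best with their own number in the other genotype. The labels give no meaning to the numbers, and not every pair exceeded 0.1, so the mice were not treated as paired. With the replicate block 4 keratins were called in the AOM/DSS pair, and 0 in the other comparisons. This block gave each number 1 shift shared by both array sets, so it cannot check a pairing within the water set alone.

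Some small differences changed sign: Krt5 to -0.026 and -0.032 under the quantile normalizations, and, with 1 array left out, Krt7 (-0.27 to 0.019), Krt10 (-0.38 to 0.0009), Krt18 (-0.074 to 0.28) and, in the water pair, Krt14 (-0.11 to 0.040). The cause was not tested. The same alternatives were run for the related lists after seeing the data: the calls of Ly6d held in 7 of 20, of Dsg4, Car1 and Pnliprp1 in 8 each, of Tgm1 in 13 and of Asprv1 in 14. All 6 calls were lost without WT AOM/DSS mouse 3 (adjusted p 0.0673 to 0.149) and without TSP-1-/- AOM/DSS mouse 3 (adjusted p 0.0553 to 0.111). The cornified gene Sprr1a would have been called without WT AOM/DSS mouse 1 (-1.72) or TSP-1-/- AOM/DSS mouse 2 (-1.83). Relative log2 values give no signal over background, so dim probes cannot be set apart.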
